A study of Mus musculus with 31 samples.

Results

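The genes described here are 30 genes of cholesterol and fatty acid synthesis and its control, taken by symbol from the 38283 genes that each expression table lists. All 30 were listed once in both tables and passed the filter of a mean of at least 1 FPKM in every comparison. They comprised 6 genes of the mevalonate and isoprenoid steps, 3 of the squalene and lanosterol steps, 7 of the conversion of lanosterol to cholesterol, 6 sensors, transcription factors and sterol carriers, 4 of fatty acid synthesis, and 4 of desaturation and elongation.

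RNA was measured in pancreatic cells of C57BL/6 mice at postnatal day 2, sorted into YFP+ mesenchymal and YFP- non-mesenchymal cells, in a study of mesenchymal loss or gain of Igf2. In the H19DMD model, mutants (H19DMDfl/+; Nkx3.2+/Cre) gave 4 libraries of each fraction and controls (H19DMD+/+; Nkx3.2+/Cre) gave 3 of each. H19DMD is the imprinting control region of H19 and Igf2. In the Igf2 model, mutants (Igf2+/fl; Nkx3.2Cre/+) gave 3 and controls (Igf2+/+; Nkx3.2Cre/+) gave 4 libraries of non-mesenchymal cells. Mutants and controls of both models thus carried the Nkx3.2 Cre allele, which is active in the pancreatic mesenchyme, and in both models the non-mesenchymal cells are the YFP- cells. The mesenchymal cells of the Igf2 model were not analysed here. The labels do not say whether libraries came from separate animals, so p-values measure only the spread between these samples, which may be technical.

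Cells build cholesterol from acetyl-CoA through mevalonate, squalene and lanosterol, and fatty acids from acetyl-CoA through malonyl-CoA. Both routes are switched on by the SREBP transcription factors, which SCAP carries from the endoplasmic reticulum to the Golgi when sterols are scarce and which INSIG proteins hold back when sterols are plentiful. In the pancreas these lipids supply membranes, among them those of the secretory pathway of acinar and endocrine cells.

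The labels and the targeted locus were checked first. Within the mesenchymal fraction of the H19DMD libraries, Igf2 lay at 6162 to 7923 FPKM in mutants and 3648 to 4024 FPKM in controls, and H19 was 565 to 835 FPKM in mutants and 2437 to 2454 FPKM in controls. In YFP- cells of the Igf2 model, Igf2 was 24.97 to 147 FPKM in mutants and 71.5 to 144 FPKM in controls, with overlap, which does not check a deletion in mesenchymal cells. In YFP- cells of the H19DMD model, Igf2 was 88.5, 156.7, 45.4 and 141.4 FPKM in mutants. It was 45.2 to 53.2 FPKM in their controls, with overlap through mutant library 3. Mesenchymal markers separated the fractions as labelled, with summed levels of 5565 to 7168 FPKM in YFP+ libraries and 165 to 287 FPKM in YFP- libraries of that table, and all 10 markers were higher in mesenchymal cells in controls and in mutants. Acinar (9 of 9 tested) and endocrine (10 of 10 tested) markers were lower. Of 7 leukocyte markers, 6 were called lower in controls and 6 in mutants. Of 6 erythroid markers tested, 4 and 5 were called lower, and of 6 ductal markers 3 and 6. Of 5 smooth muscle markers, 5 were called higher in controls and 4 in mutants. Libraries listed 17476 to 20918 genes above 0. The absolute depth is unknown.

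Promoters are shown for 4 genes because, in controls, Lss, Cyp51 and Acly were lower in mesenchymal cells whereas Hmgcs1 was at nearly equal levels in both fractions. They are examples: Insig2, with 3 windows, and Acaca, with 1, were also called in controls and are not printed, and the Cyp51 call was lost under 11 of 14 alternative settings. Each is the 250 bases before an annotated start in RefSeq (GRCm38.p6), read 5′ to 3′ on the gene's strand. Capitals mark, on either strand, the sterol regulatory element core TCACNCCAC (bound by SREBPs), the NF-Y motif CCAAT and the GC box GGGCGG (an Sp1 motif); none of these motifs contains another. The windows are chr13:119690101-119690350 (+) for Hmgcs1, chr10:76531355-76531604 (+) for Lss, chr5:4104698-4104947 (-) for Cyp51 and chr11:100528001-100528250 (-) for Acly.
Hmgcs1: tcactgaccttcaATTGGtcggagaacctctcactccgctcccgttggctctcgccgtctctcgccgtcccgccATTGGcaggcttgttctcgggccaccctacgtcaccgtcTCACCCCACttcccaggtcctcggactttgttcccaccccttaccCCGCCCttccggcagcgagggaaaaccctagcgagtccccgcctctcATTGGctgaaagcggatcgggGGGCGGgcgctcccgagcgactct
Lss: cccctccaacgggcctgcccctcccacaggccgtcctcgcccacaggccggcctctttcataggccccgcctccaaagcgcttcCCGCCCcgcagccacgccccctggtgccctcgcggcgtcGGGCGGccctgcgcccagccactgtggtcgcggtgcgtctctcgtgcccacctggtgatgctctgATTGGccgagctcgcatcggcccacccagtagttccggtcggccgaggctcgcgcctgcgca
Cyp51: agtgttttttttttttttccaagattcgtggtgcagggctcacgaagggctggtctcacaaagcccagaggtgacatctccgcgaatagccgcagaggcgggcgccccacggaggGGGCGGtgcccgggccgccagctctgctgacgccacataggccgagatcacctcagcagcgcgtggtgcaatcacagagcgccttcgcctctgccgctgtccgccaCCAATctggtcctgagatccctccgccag
Acly: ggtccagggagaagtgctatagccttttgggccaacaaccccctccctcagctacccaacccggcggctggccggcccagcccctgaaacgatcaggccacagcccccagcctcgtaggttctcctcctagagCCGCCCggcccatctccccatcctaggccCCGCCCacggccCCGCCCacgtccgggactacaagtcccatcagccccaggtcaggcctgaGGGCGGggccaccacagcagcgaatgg

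Of the 30 genes, 24 had a promoter entry, with 32 windows in all. CCAAT was in a window of 20 of these 24 genes, and in 37.5% of all 27025 genes with an entry. GGGCGG was in 18 of 24, against 35.4% of all genes, and the E-box CACGTG was in 6 of 24, against 6.86%. TCACNCCAC was in 1 of 24, Hmgcs1, against 1.22% of all genes. Genes with several annotated starts had several windows, and 1 window with the letters was enough to count. TCACNCCAC was also absent from the windows of Fasn, Srebf2 and Nsdhl. Their log2 differences, mesenchymal minus non-mesenchymal in H19DMD controls, were 0.05, -0.03 and -0.14, with overlapping groups. A window without these exact letters does not show that a gene lacks SREBP sites, there or elsewhere. The relation of the letters to the levels was not tested, and they are a description of these windows only.

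Levels differed widely between genes, and FPKM, being scaled by transcript length, allows most of them to be set side by side. The loci of Mvd, Srebf1, Tm7sf2 and Fdft1 in the table are 451.57, 5.0, 3.98 and 1.61 times as long as the annotated genes. The ranks of these genes are therefore less certain. In controls of the H19DMD model, Acly, the enzyme that makes cytosolic acetyl-CoA from citrate, had the highest mean in non-mesenchymal cells, at 76.5 FPKM ± 5.52 (SD, n = 3). In mesenchymal cells the highest means were those of Elovl5, an elongase of polyunsaturated fatty acids, at 41.1 FPKM ± 11.3 (SD, n = 3), and Scd2, a stearoyl-CoA desaturase, at 39.4 ± 4.78 (SD, n = 3), which did not differ beyond their spread. The lowest means in control non-mesenchymal cells were those of Acacb, the mitochondrial acetyl-CoA carboxylase, at 0.687 FPKM ± 0.228 (SD, n = 3), and Mvd, mevalonate diphosphate decarboxylase, at 1.40 ± 1.13 (SD, n = 3), whose ranges overlapped. The 30 levels summed to 309 to 374 FPKM in the 7 mesenchymal libraries and to 373 to 501 FPKM in the 7 non-mesenchymal libraries of that table. In the separately normalised Igf2 table the sums were 549 to 627 FPKM in control and 488 to 552 FPKM in mutant non-mesenchymal cells, ranges that overlapped.

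**Figure D1:**
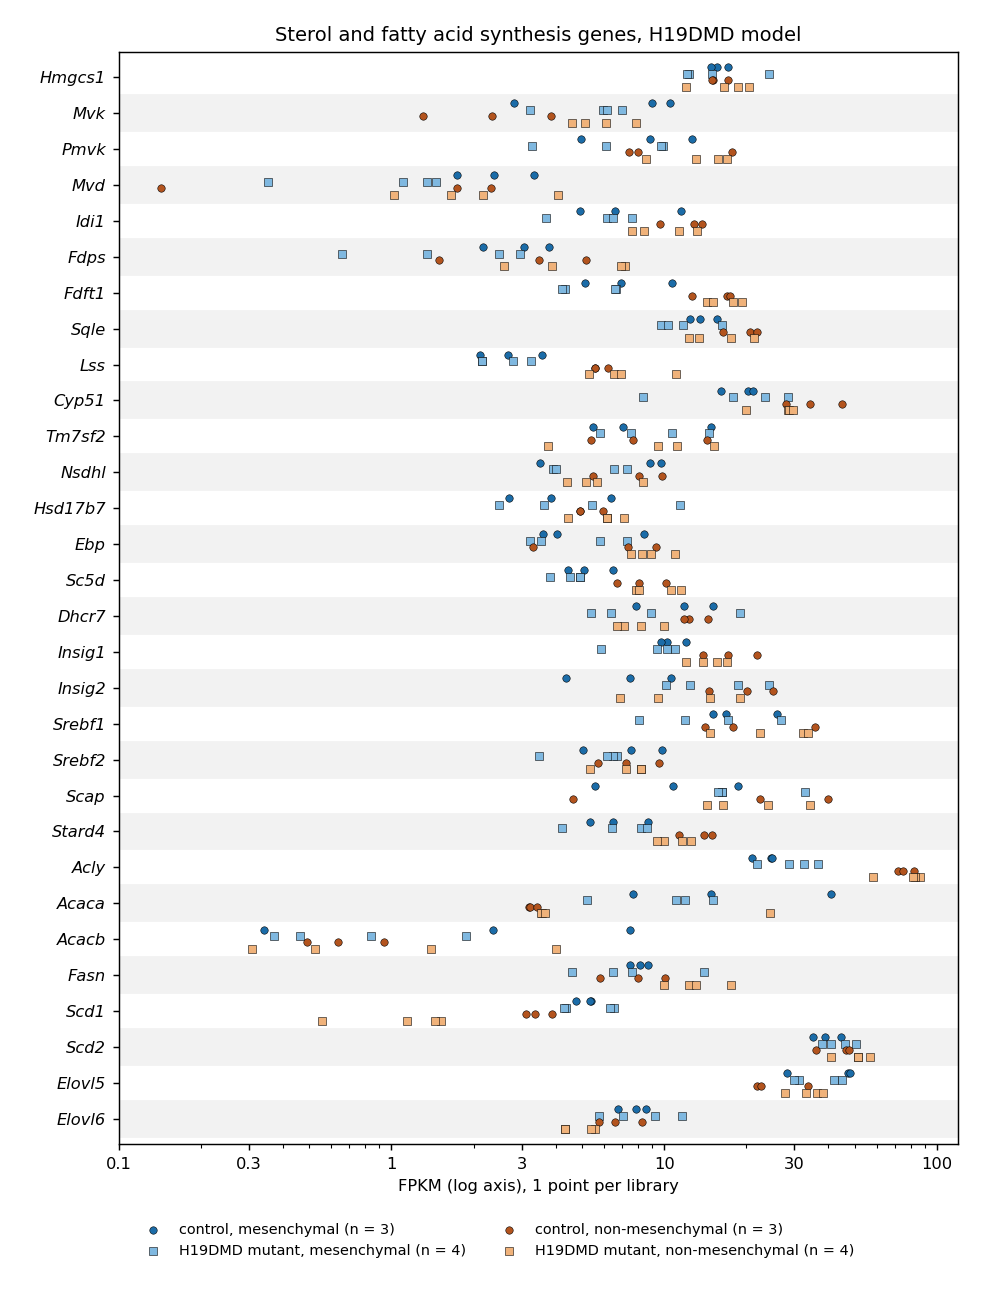
Level of each of the 30 genes in every library of the H19DMD model (horizontal axis, FPKM on a log scale; 1 point per library; colours give fraction and genotype). Acly points of mesenchymal libraries lie between 21.1 and 36.7 FPKM and those of non-mesenchymal libraries between 58.5 and 86.9 FPKM.

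The fractions were compared in controls and, in other libraries, in mutants of the H19DMD model. In controls 5 genes (Acly, Insig2, Stard4, Lss and Cyp51) were lower in mesenchymal cells and 1 (Acaca) was higher by limma at an adjusted p under 0.05. Over all genes tested, 10.3% were lower and 12.4% higher by that rule. Of the control calls, Acly held under all 14 alternative settings, whereas Lss, Insig2 and Stard4 were each lost under 7, Acaca under 9 and Cyp51 under 11. In mutants 4 genes (Fdft1, Acly, Lss and Sc5d) were lower, against 15.1% of all genes, and 1 (Scd1) was higher, against 13.5%. Lower genes were thus 5 of 30 in controls, somewhat above the share of all genes, and 4 of 30 in mutants, near it. Higher genes were 1 of 30 in each contrast, below it. All 30 are protein-coding. With protein-coding genes only, 7 of 30 were called in either direction in controls, beside 30.1% of such genes. In mutants 8 of 30 were then called, beside 36.4%, so both counts lay below those shares. None of these departures was tested. The median log2 difference, mesenchymal minus non-mesenchymal on the log2(FPKM + 1) scale, was -0.16 over the 30 genes and 0.08 over all genes in controls, and -0.35 and -0.03 in mutants. Median-ratio scaling moved the median of all genes in controls to -0.04 and left 7 of the 30 called.

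Groups did not overlap for 11 of the 30 genes in controls (39.9% of all genes) and for 10 in mutants (31% of all genes). The sign was the same in both contrasts for 22 of 30. Fdft1, Lss, Sc5d, Insig1, Stard4 and Acly were lower without overlap in both, and Scd1 was higher without overlap in both. These 7 genes compare with 24.1% of the genes tested in both contrasts. Acly and Lss passed the adjusted test in both, as did 18.4% of the genes tested in both.

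None of the 6 genes of the mevalonate and isoprenoid steps passed the test in either contrast. Hmgcs1, which makes HMG-CoA, was 15.7, 14.9 and 17.2 FPKM in control mesenchymal libraries and 15.1, 17.1 and 14.9 FPKM in control non-mesenchymal libraries. These ranges overlapped, and the log2 difference was 0.02 with a 95% interval of -0.37 to 0.41, changing sign under median-ratio scaling (-0.12). Idi1, the isopentenyl diphosphate isomerase, differed by -0.65 in controls and -0.67 in mutants, with no overlap in mutants and limma adjusted p values of 0.216 and 0.0816. Fdps, farnesyl diphosphate synthase, differed by -0.05 and -1.10, with adjusted p values of 0.946 and 0.0658. It shares 26.7% of its exonic bases with the gene model Gm43738 on the same strand, so its reads may be split. Mvk, mevalonate kinase, was 1.19 in controls and -0.09 in mutants, and phosphomevalonate kinase (Pmvk) was -0.28 and -0.88. None of these 4 values passed the test.

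All 3 genes that lead from farnesyl diphosphate to lanosterol had negative differences in both contrasts. Lss (ENSMUSG00000033105, chromosome 10, 76531588 to 76557138, plus strand, GRCm38), which closes squalene epoxide into lanosterol, was 2.12, 2.67 and 3.58 FPKM in control mesenchymal libraries and 6.21, 5.58 and 5.59 FPKM in control non-mesenchymal libraries. In mutants it was 2.15, 2.15, 2.79 and 3.25 FPKM in mesenchymal and 6.53, 6.92, 11.1 and 5.28 FPKM in non-mesenchymal libraries. All mesenchymal libraries lay below all non-mesenchymal ones in both genotypes. The log2 difference was -0.86 ± 0.22 (SE; limma adjusted p = 0.0407) in controls and -1.21 ± 0.24 (adjusted p = 0.0066) in mutants.

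Fdft1, squalene synthase (ENSMUSG00000021273, chromosome 14, 63145150 to 63179578, minus strand), was 10.7, 6.93 and 5.14 FPKM in control mesenchymal and 12.7, 16.9 and 17.4 FPKM in control non-mesenchymal libraries. In mutants it was 6.67, 4.34, 4.22 and 6.60 FPKM in mesenchymal and 14.4, 19.2, 15.1 and 17.9 FPKM in non-mesenchymal libraries. The groups did not overlap in either genotype, and the gene fell by 1.47 ± 0.20 (SE) on the log2 scale in mutants (limma adjusted p = 0.000848), whereas the value of -0.998 in controls had an adjusted p of 0.0572. Fdft1 shares 774 exonic bases, 18.3% of its total, with Ctsb on the opposite strand, its locus in the table is 1.61 times as long as the annotated gene, and the use of strand is not given in the sources used here. Ctsb, a lysosomal protease gene, was 19.9 to 32.3 FPKM in mesenchymal and 31.5 to 59.4 FPKM in non-mesenchymal libraries. Its part in the Fdft1 difference was not tested. Sqle, squalene epoxidase, differed by -0.47 in controls, without overlap, and by -0.39 in mutants, with overlap. Its limma adjusted p values were 0.143 and 0.25.

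Of the 7 enzymes that turn lanosterol into cholesterol, 1 passed in each contrast, and it was not the same one. Cyp51, lanosterol demethylase (ENSMUSG00000001467, chromosome 5, 4081145 to 4104746, minus strand), was 16.2, 20.3 and 21.1 FPKM in control mesenchymal and 44.9, 27.8 and 34.1 FPKM in control non-mesenchymal libraries. It was lower by a log2 difference of -0.84 ± 0.23 (SE; limma adjusted p = 0.048), and the groups did not overlap. In mutants, mesenchymal libraries (28.5, 17.9, 8.33 and 23.5 FPKM) overlapped with non-mesenchymal ones (28.5, 20.0, 28.7 and 29.6 FPKM), with a difference of -0.54 and an adjusted p of 0.301. Sc5d, which introduces a ring double bond late in the pathway (ENSMUSG00000032018, chromosome 9, 42251595 to 42264256, minus strand), was 4.90, 4.51, 3.83 and 4.92 FPKM in mutant mesenchymal and 11.6, 7.88, 10.6 and 8.10 FPKM in mutant non-mesenchymal libraries. The mutant groups were well apart, and the log2 difference was -0.92 ± 0.18 (SE; limma adjusted p = 0.00602). In controls Sc5d was 4.43 to 6.48 against 6.72 to 10.1 FPKM, a difference of -0.55 with an adjusted p of 0.151. Ebp, the sterol isomerase, was lower without overlap in mutants (4.96 ± 1.93 against 8.95 ± 1.47 FPKM, SD, n = 4 each), with an adjusted p of 0.0521. Tm7sf2, Nsdhl, Hsd17b7 and Dhcr7, which act as sterol reductases and dehydrogenases, differed by -0.29 to -0.01 in controls and -0.20 to 0.14 in mutants, and their groups overlapped. The Tm7sf2 locus in the table is 3.98 times as long as the annotated gene.

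Among the 6 regulators, Insig2 and the carrier Stard4 passed the test in controls, both lower in mesenchymal cells, and Insig1, Srebf1, Srebf2 and Scap did not. None of the 6 passed in mutants. Insig2, an endoplasmic reticulum protein that retains SCAP (ENSMUSG00000003721, chromosome 1, 121304353 to 121332589, minus strand), was 7.47, 10.6 and 4.35 FPKM in control mesenchymal and 14.6, 25.0 and 20.1 FPKM in control non-mesenchymal libraries. The control groups did not overlap, and the log2 difference was -1.34 ± 0.35 (SE; limma adjusted p = 0.0415). In mutants, Insig2 was 10.1, 12.4, 18.6 and 24.2 FPKM in mesenchymal and 18.9, 14.7, 9.51 and 6.87 FPKM in non-mesenchymal libraries. Here the groups overlapped, with a difference of 0.38 and an adjusted p of 0.476. Insig1, its paralogue and a well known SREBP target, was 9.73 to 11.98 against 13.8 to 21.97 FPKM in controls and 5.85 to 10.96 against 12.02 to 16.98 FPKM in mutants. Neither pair of groups overlapped, but the differences of -0.66 and -0.65 had limma adjusted p values of 0.0856 and 0.0564.

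Stard4 (ENSMUSG00000024378), which carries sterol between membranes, was 5.35, 8.71 and 6.47 FPKM in control mesenchymal and 11.3, 13.97 and 14.98 FPKM in control non-mesenchymal libraries. The groups were apart, with a log2 difference of -0.89 ± 0.23 (SE; limma adjusted p = 0.0397). In mutants it was 4.23 to 8.67 against 9.44 to 12.6 FPKM, also without overlap, with a difference of -0.63 and an adjusted p of 0.0748. Srebf1 and Srebf2, which encode the SREBPs, differed by -0.14 and -0.03 in controls and by -0.71 and -0.32 in mutants. The Srebf1 locus in the table is 5.0 times as long as the annotated gene. Scap, which escorts the SREBPs, varied widely, at 4.64, 39.7 and 22.4 FPKM in the control non-mesenchymal libraries alone, so that its difference of -0.61 in controls had a 95% interval of -2.57 to 1.36.

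The first enzymes of fatty acid synthesis moved in opposite directions in controls. Acly (ENSMUSG00000020917, chromosome 11, 100476353 to 100528000, minus strand) was 24.7, 24.8 and 21.1 FPKM in control mesenchymal and 72.0, 74.9 and 82.7 FPKM in control non-mesenchymal libraries. In mutants it was 36.7, 32.5, 21.8 and 28.6 FPKM in mesenchymal and 86.9, 83.2, 81.7 and 58.5 FPKM in non-mesenchymal libraries. Every mesenchymal library lay below every non-mesenchymal library of its genotype. The log2 difference was -1.66 ± 0.15 (SE; limma adjusted p = 0.000947) in controls and -1.35 ± 0.20 (adjusted p = 0.00152) in mutants, a ratio of means of 0.307 and 0.386.

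Acaca, the cytosolic acetyl-CoA carboxylase (ENSMUSG00000020532, chromosome 11, 84129672 to 84401651, plus strand), was 7.68, 14.9 and 40.8 FPKM in control mesenchymal and 3.19, 3.22 and 3.42 FPKM in control non-mesenchymal libraries. The mesenchymal libraries were all higher but spread widely, and the log2 difference was 2.07 ± 0.56 (SE; limma adjusted p = 0.0471). In mutants it was 5.22, 11.9, 11.02 and 15.04 FPKM in mesenchymal and 3.55, 3.53, 3.65 and 24.4 FPKM in non-mesenchymal libraries. The fourth non-mesenchymal library exceeded all mesenchymal ones, and the difference was 0.67 with an adjusted p of 0.448. Without that library it was 1.28, with an adjusted p of 0.031 (0.031 to 0.665 over the alternatives). Fasn, the fatty acid synthase, differed by 0.05 in controls, turning negative under median-ratio scaling (-0.07), and by -0.71 in mutants (adjusted p = 0.136). Acacb had overlapping groups in both.

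Of the desaturases and elongases, Scd1 passed in mutants. Scd1, which makes monounsaturated fatty acids (ENSMUSG00000037071, chromosome 19, 44394455 to 44407879, minus strand), was 4.35, 6.53, 6.31 and 4.28 FPKM in mutant mesenchymal and 1.14, 1.52, 0.557 and 1.45 FPKM in mutant non-mesenchymal libraries. In controls it was 5.39, 5.35 and 4.74 FPKM in mesenchymal and 3.87, 3.35 and 3.12 FPKM in non-mesenchymal libraries. Mesenchymal libraries were higher throughout, with a log2 difference of 1.56 ± 0.25 (SE; limma adjusted p = 0.00192) in mutants and 0.47 ± 0.19 (adjusted p = 0.139) in controls. Elovl6, which elongates palmitate, was also higher without overlap in mutants (8.43 ± 2.58 against 4.92 ± 0.670 FPKM, SD, n = 4 each; limma adjusted p = 0.0693). Scd2 and Elovl5 had overlapping groups in both contrasts.

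**Figure D2:**
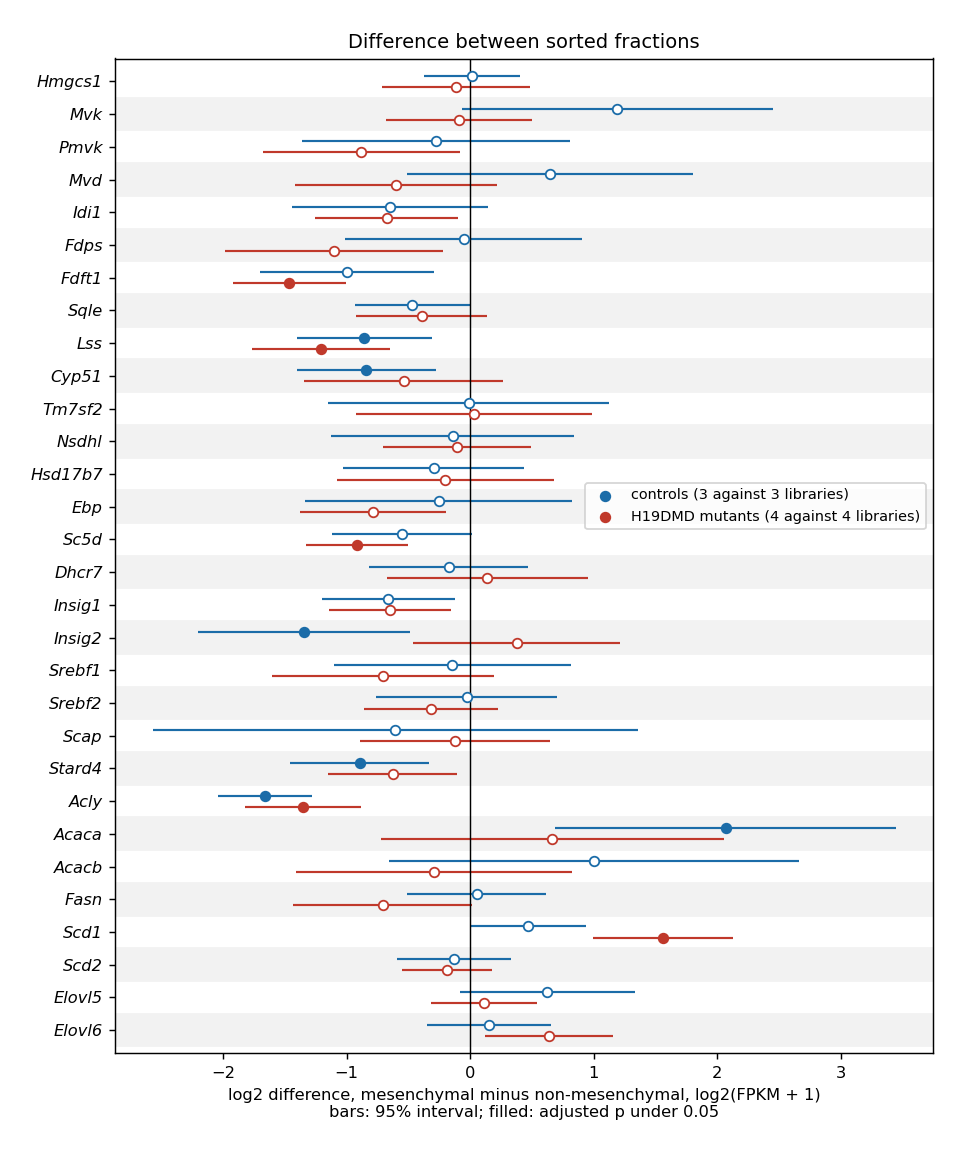
Log2 difference between mesenchymal and non-mesenchymal cells for each gene (horizontal axis, log2(FPKM + 1) scale; bars, 95% interval; filled points, limma adjusted p under 0.05) in controls and H19DMD mutants. Acly lies at -1.66 and -1.35, Lss at -0.86 and -1.21, and Scd1 at 0.47 and 1.56.

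The calls in controls rested on few libraries. Leaving out non-mesenchymal library 1, 2 or 3 left 1, 2 or 1 genes called in place of 6, and leaving out mesenchymal library 2 or 3 left 3 each. The share of all genes called fell too, from 22.6% to between 17% and 19.6% in these 5 fits. All 5 genes called in mutants passed in all 16 alternatives. The sorted fractions differ in cell types, and in bulk libraries fewer cells of a type and less RNA per cell cannot be told apart. The summed level of 6 adipocyte markers was 12.5 to 29.7 FPKM in mesenchymal and 1.61 to 5.33 FPKM in non-mesenchymal libraries of the H19DMD table, most of it Fabp4, with Adipoq and Lep listed at 0 in all 14. Its part in the Scd1 difference was not tested.

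Other genes of sterol and fatty acid handling are given by list. The shares of all genes to read them against are 12.4% higher and 10.3% lower in controls, 13.5% higher and 15.1% lower in mutants, and 18.4% called the same way in both. Departures of the lists from these shares were not tested. Of 7 further synthesis genes, none passed in controls (limma; 0 at an unadjusted p under 0.05) and Lbr, a sterol reductase of the nuclear envelope, was lower in mutants (10.9 against 16.03 FPKM). Of 9 genes of SREBP processing and transport, 3 of the COPII coat were higher in both contrasts: Sec23a (41.2 against 8.18 FPKM in controls), Sec24a (31.3 against 17.2) and Sar1a (75.6 against 34.4). COPII vesicles carry many cargoes besides SCAP. Of 11 tested genes of sterol uptake, egress and ester storage, 1 was higher and 1 lower in controls, and 2 and 2 in mutants. The lipoprotein receptor Vldlr was higher (21.4 against 4.02 FPKM in controls) and its relative Lrp8 lower (0.446 against 5.24) in both contrasts. In mutants the lysosomal acid lipase gene Lipa was also higher (20.3 against 11.2 FPKM) and Npc2, a lysosomal sterol carrier, lower (12.6 against 19.3 FPKM). Apoe (23.2 against 89.9 FPKM in controls) and the sterol exporter Abcg1 (1.59 against 5.98) were lower in both, 2 of 5 tested genes of LXR targets and efflux. Leukocyte markers were also lower in mesenchymal cells, and their part in these values was not tested.

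Of 15 tested genes of further desaturation, elongation and fatty acid supply, 1 was lower in controls and 7 in mutants, and none was higher. The elongase Elovl7 was the one lower in controls (0.271 against 6.10 FPKM). The 7 in mutants were Elovl7, Fads2, Hacd3, Acss2, Me1, Slc25a1 and Mid1ip1, of which Slc25a1, the mitochondrial citrate carrier, was 5.13 against 13.8 FPKM. Dgat1, which makes triglyceride, was lower in both contrasts (26.2 against 57.8 FPKM in controls), 1 of 7 tested glycerolipid genes in controls and of 8 in mutants. Of the fatty acid oxidation genes, 0 of 9 passed in controls (limma; 1 at an unadjusted p under 0.05) and Acadl and Acadvl were lower in mutants, 2 of 8.

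In mesenchymal cells, which carry the H19DMD deletion, none of the 30 genes passed the test between mutants and controls (limma, adjusted p under 0.05; 0.0694% of all genes passed). At an unadjusted p under 0.05 there was 1 (4.76% of all genes), and groups did not overlap for 1 (5.39% of all genes). The median log2 difference, mutant minus control, was -0.16 over the 30 genes and -0.07 over all genes.

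Insig2, with the lowest p, had the mesenchymal values given above, and its log2 difference was 1.03 with a 95% interval of 0.14 to 1.92 (limma unadjusted p = 0.0291, adjusted p = 0.927). Mutant library 1, at 10.1 FPKM, lay below the highest control, at 10.6, and the other 3 lay above it; the exact permutation p was 0.0857 (two-sided). Mvd was 1.46, 0.354, 1.35 and 1.099 FPKM in mutants and 2.37, 3.33 and 1.74 FPKM in controls. All mutants were lower (log2 difference -0.76, exact permutation p = 0.0286, the smallest possible for 4 against 3, limma adjusted p = 0.927). The Mvd locus in the table is far wider than the annotated gene. Scap was 16.3, 16.2, 32.7 and 15.8 FPKM in mutants and 10.7, 18.7 and 5.59 FPKM in controls, with overlap (0.82, adjusted p = 0.927).

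Marker levels of other lists are given beside those values. Summed ductal markers were 14.7 to 33.8 FPKM in mutants and 34.9 to 80.8 FPKM in controls, without overlap. Smooth muscle markers summed to 72.5 to 578 FPKM in mutants and 356 to 708 FPKM in controls, with a median log2 difference of -0.90 over 5 tested. Mesothelial markers summed to 90.9 to 138.5 FPKM and 128 to 286 FPKM, with a median of -1.19 over 4. The ranges of both lists overlapped, as did those of 6 cell cycle genes (96.1 to 156 against 149.5 to 163 FPKM, median -0.40) and of leukocyte markers (30.6 to 69.3 against 17.6 to 33.15 FPKM, median 0.55 over 4 tested). Endocrine markers (35.01 to 127 against 54.85 to 228 FPKM, median -0.41 over 7 tested) and erythroid markers (12.2 to 24.0 against 16.9 to 18.7 FPKM, median 0.35 over 3 tested) also overlapped. No marker of these 7 lists passed the adjusted test. At an unadjusted p under 0.05, the mesothelial marker Msln, the endocrine Gcg and the erythroid Hbb-bs had negative differences and the leukocyte marker Fcer1g a positive one. Their part in the values of the 30 genes was not tested.

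In non-mesenchymal cells of the H19DMD model, none of the 30 passed (limma; 0.0677% of all genes), 4 had an unadjusted p under 0.05 (5.35% of all genes) and 5 did not overlap (5.68% of all genes). The 5 were Scd1, Dhcr7 and Elovl6, lower in mutants, and Mvk and Acaca, higher. The Acaca groups were parted only by 3.53 against 3.42 FPKM (exact permutation p = 0.457), and the log2 difference of 0.72 was 0.10 without mutant library 4. The median difference was 0.11 over the 30 genes and 0.05 over all genes.

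Scd1 had the lowest p. With the non-mesenchymal libraries given above, the mutant mean was 1.16 FPKM ± 0.437 (SD, n = 4) against a control mean of 3.45 ± 0.385 (SD, n = 3). All 4 mutants lay below all 3 controls by a factor of about 0.338 in the means (log2 difference -1.06, 95% interval -1.70 to -0.41, exact permutation p = 0.0286, limma adjusted p = 0.892). Dhcr7, the last reductase of cholesterol synthesis, was 7.12, 10.01, 8.20 and 6.73 FPKM in mutants and 12.3, 11.8 and 14.5 FPKM in controls. Again no mutant reached a control (-0.63, 95% interval -1.07 to -0.19, exact permutation p = 0.0571, limma adjusted p = 0.892). Mvk was 7.89, 5.13, 4.58 and 6.11 FPKM in mutants and 3.83, 2.33 and 1.301 FPKM in controls, all mutants being higher (1.03, 95% interval 0.31 to 1.76, exact permutation p = 0.0286, limma adjusted p = 0.892). Fasn, with a limma unadjusted p of 0.03, had a mean of 13.2 FPKM (SD 3.19, n = 4) for mutants against 7.95 (SD 2.12, n = 3) for controls, with overlap.

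Marker levels of other cell types are given beside these values. Erythroid markers summed to 154 to 1717 FPKM in mutants and 123 to 442 FPKM in controls, endocrine markers to 11270 to 20530 and 19930 to 29990 FPKM, and mesothelial markers to 53.3 to 74.6 and 35.9 to 53.1 FPKM, the last without overlap and mostly Krt19, which is also a ductal marker. None passed the adjusted test, and 3 of 7 erythroid markers were higher and 4 of 10 endocrine markers lower at an unadjusted p under 0.05. At that p, 1 mesenchymal, 1 leukocyte and 1 cell cycle marker were also lower, and 1 neural and Schwann marker was higher. All 6 ductal markers had positive differences (median 0.31), as did 1 of 9 tested acinar (median -0.198) and 1 of 6 cell cycle markers (median -0.126). Their part in the differences was not tested.

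The difference between the fractions' responses was tested as an interaction in the 14 H19DMD libraries. None of the 30 passed (limma; 0.0117% of all genes), and 3 had an unadjusted p under 0.05 (6.35% of all genes). They were Scd1 (1.09, 95% interval 0.43 to 1.75, adjusted p = 0.734), Insig2 (1.72, 95% interval 0.54 to 2.90, adjusted p = 0.755) and Mvk (-1.28, 95% interval -2.48 to -0.08, adjusted p = 0.755), where a positive value is a higher mutant-to-control difference in mesenchymal cells. For Scd1 the differences were 0.03 in mesenchymal and -1.06 in non-mesenchymal cells, and for Insig2 1.03 and -0.69. The median was -0.09 over the 30 genes and -0.11 over all genes, the latter moving to 0.00 with median-ratio scaling. These values share libraries with the contrasts above.

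In non-mesenchymal cells of the Igf2 model, none of the 30 passed between mutants and controls (limma; 0.0631% of all genes), 4 had an unadjusted p under 0.05 (5.28% of all genes) and 3 did not overlap (6.02% of all genes). The median log2 difference was -0.09 over the 30 genes and -0.03 over all genes.

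Hsd17b7, a reductase that acts on sterol intermediates, was 2.62, 3.55 and 2.36 FPKM in mutants and 7.72, 3.94, 8.77 and 6.96 FPKM in controls. All mutants lay below all controls, the nearest pair being 3.55 and 3.94 (log2 difference -0.999, 95% interval -1.69 to -0.31, exact permutation p = 0.0571, limma adjusted p = 0.919). Scd2 was 40.7, 38.9 and 55.2 FPKM in mutants and 61.5, 66.1, 61.9 and 59.9 FPKM in controls. Mutants were again all lower (-0.48, 95% interval -0.86 to -0.09, exact permutation p = 0.0286, limma adjusted p = 0.919). Hmgcs1 was 15.02, 21.7 and 11.7 FPKM in mutants and 28.9, 19.5, 31.2 and 27.4 FPKM in controls, where mutant library 2 exceeded control library 2 (-0.72, 95% interval -1.32 to -0.11, limma adjusted p = 0.919). Acaca was higher in all mutants (8.20 ± 0.793 FPKM, SD, n = 3, against 5.67 ± 0.830, n = 4; limma adjusted p = 0.919).

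Scd1, Dhcr7 and Mvk, which had the lowest p values in the H19DMD non-mesenchymal comparison, differed here by -0.03, 0.12 and 0.42, with overlapping groups. The 95% interval of Scd1 was -1.78 to 1.72, its values being 1.08, 10.4 and 1.52 FPKM in mutants and 4.59, 0.564, 3.58 and 5.40 FPKM in controls. The models were normalised in separate tables, and the difference between them was not tested.

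Acinar markers in the Igf2 model summed to 86850 to 99160 FPKM in mutants and 29620 to 42770 FPKM in controls, without overlap. None of the 10 passed the adjusted test, and 8 were higher at an unadjusted p under 0.05. Summed leukocyte markers were higher (943 to 1393 against 645 to 937 FPKM) and ductal ones lower (780 to 948 against 950 to 1300 FPKM), each without overlap, with 0 of 7 and 0 of 6 passing. All 7 erythroid markers (602 to 1774 against 727 to 4174 FPKM in sum, median log2 difference -0.545) and all 6 neural and Schwann markers (29.4 to 55.9 against 23.01 to 104 FPKM, median -0.295) had negative differences, with overlapping sums and none passing. Control library 1 held the erythroid sum of 4174 FPKM, the next control being at 1723. The part of these cell types in the values of Hsd17b7, Scd2, Hmgcs1 and Acaca was not tested.

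**Figure D3:**
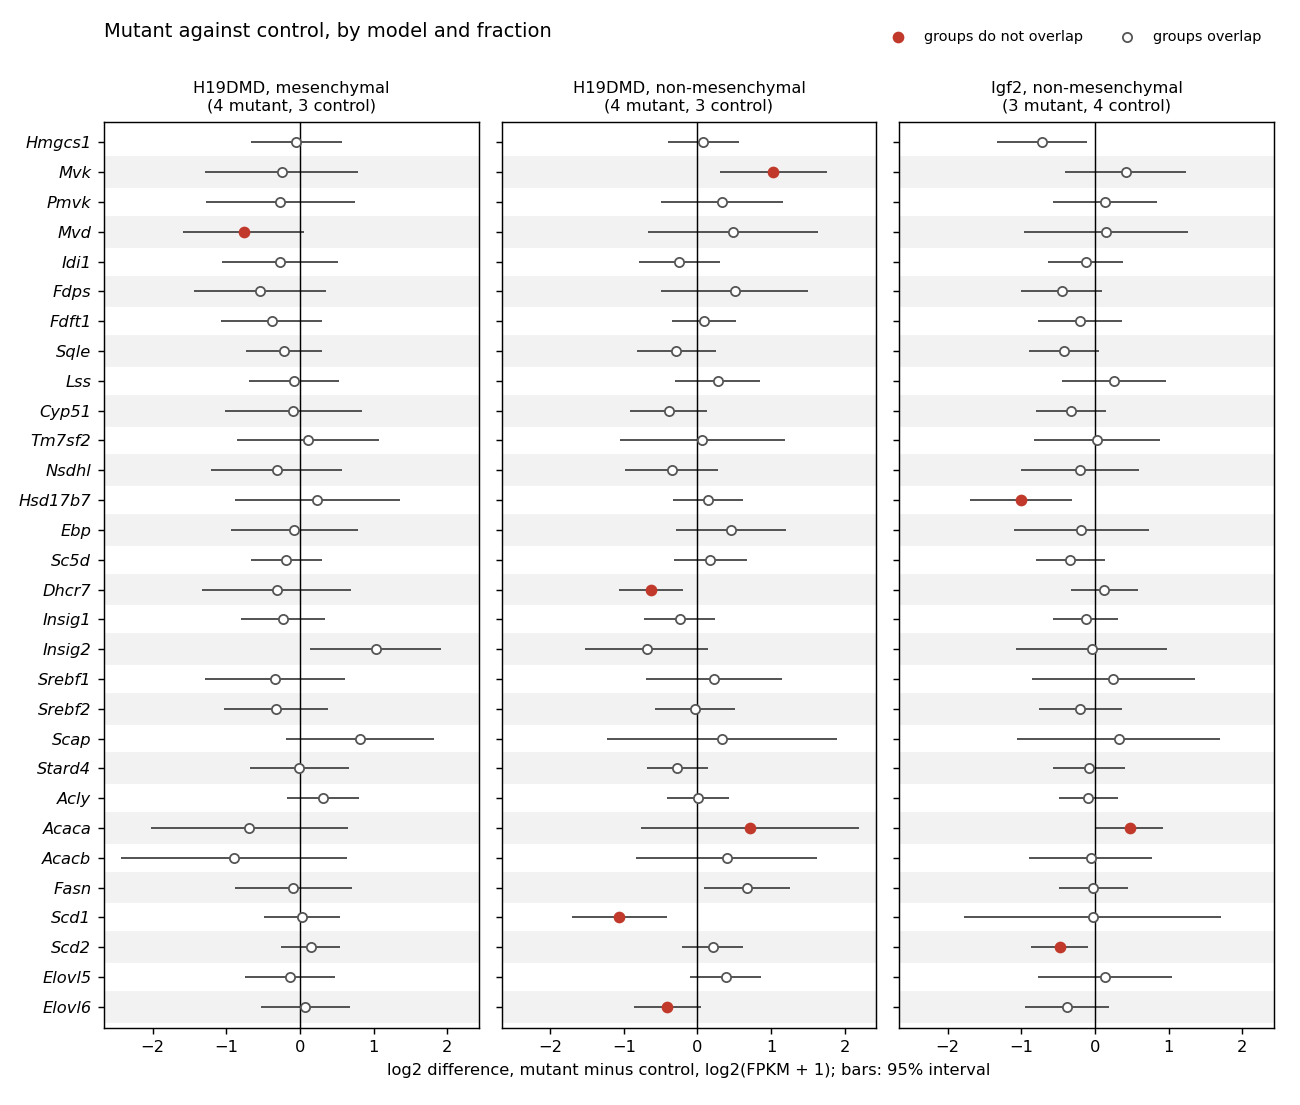
Log2 difference between mutants and controls for each gene (horizontal axis, log2(FPKM + 1) scale; bars, 95% interval) in the 3 comparisons; filled red points mark groups that do not overlap. No gene has a limma adjusted p under 0.05, and non-overlapping genes number 1, 5 and 3.

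**Figure D4:**
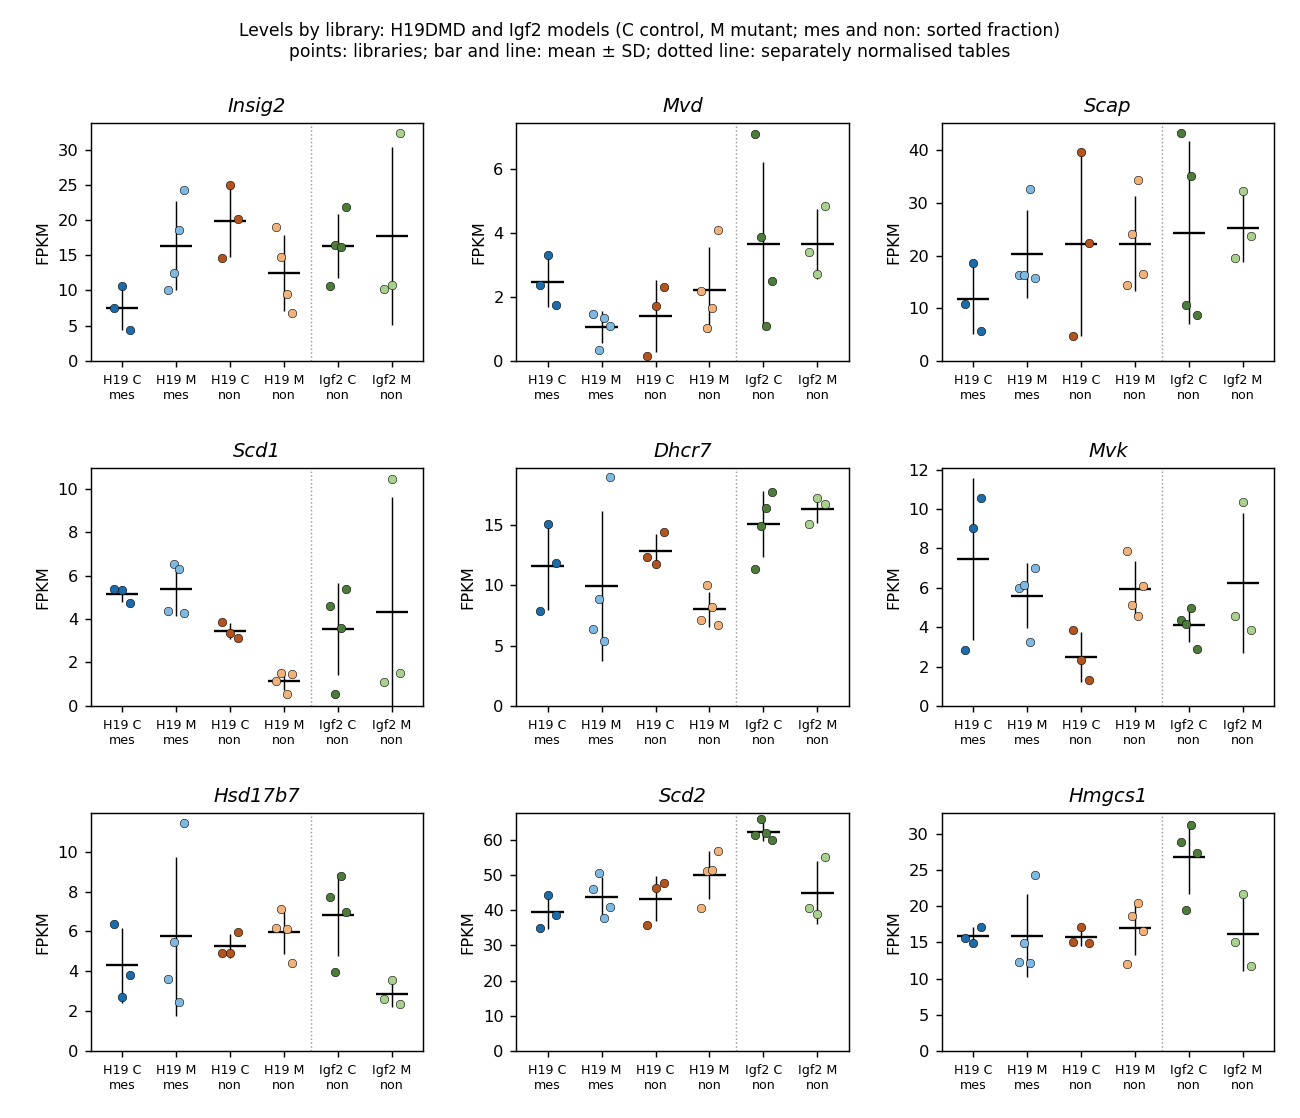
FPKM by library (points) with mean and SD for the 3 genes of lowest p in each mutant comparison, over all 6 groups (C, control; M, mutant; mes and non, sorted fraction); the dotted line separates tables normalised apart. Scd1 is 0.557 to 1.52 FPKM in H19DMD mutant non-mesenchymal cells and 3.12 to 3.87 FPKM in their controls.

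None of the other sterol and fatty acid lists had a gene past the adjusted test in any mutant comparison or in the interaction (limma). At an unadjusted p under 0.05 there were 5 of 61 such genes in H19DMD mesenchymal cells, all negative. In H19DMD non-mesenchymal cells there were 2 of 65, all positive, and in Igf2 non-mesenchymal cells 5 of 64, 3 positive and 2 negative. The shares of all genes, in either direction, were 4.76%, 5.35% and 5.28%. The interaction shares libraries with the H19DMD comparisons. In the interaction there were 9 of 64, or 14.1%, all negative, beside 4.55% of all genes with a negative value at that p. Under median-ratio scaling, a setting chosen for this count after seeing the data, there were 7 of 64, all negative, beside 3.28%. Neither departure was tested.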

How the data were processed

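Libraries of amplified total RNA (2 ng input, Ovation RNA-seq System V2, single 50-bp reads) were, per the submitters' processing notes, processed with TopHat2 2.0.8 and Cufflinks 2.2.1 on GRCm38. The annotation, the use of strand and scaling between libraries are not given in the sources used here. The authors deposited FPKM values (fragments scaled by transcript length and by mapped fragments), 1 table per model, per the file headers. FPKM holds no counts, so no counting interval is given. Low values gave no usable relative depth: the commonest step between libraries held as few as 2.05% (Igf2) and 1.87% (H19DMD) of them.

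Of 31 samples, 21 had values; the 8 mesenchymal samples of the Igf2 model and 1 H19DMD control of each fraction were not analysed here. Samples were grouped by genotype and cell type labels. The tables were normalised separately, so every test stayed within a table.

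Tests used limma 3.58.1 in R 4.3.3 (lmFit, eBayes with a variance trend, two-sided) on log2(FPKM + 1), which understates changes of low genes, over all genes averaging 1 FPKM or more in the libraries compared. Only the groups compared entered a fit, and p-values were Benjamini-Hochberg adjusted over all genes tested, at 0.05. Exact permutation tests over libraries are two-sided, and 3 against 3 cannot go below 0.1. The procedure was also run on simulated data, which cannot show how well its assumptions hold in these libraries. Gene positions and overlaps come from GENCODE M21 (36341 of 38283 identifiers matched).

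The members and lists were chosen with earlier results of these data known. The rule for named genes gave values by library to genes past the threshold between fractions and, in each mutant comparison, to the 3 with the lowest p where none passed. Alternatives were another pseudocount (0.1 or 5), no filter, median-ratio scaling, no variance trend, protein-coding genes only, a replicate block, all groups in one fit, and leaving out each library.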

Additional observations from a re-analysis of the deposited data

Results flagged for a closer look

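Over the 30 genes and the 3 groups of 4 libraries, 90 sets of values were examined for 1 library far from the other 3, and 5 were found; chance gives about 1 in 20. In H19DMD mutant non-mesenchymal cells, Acaca was 24.4 FPKM in library 4 while the other 3 were at most 3.65, and Cyp51 was 20.0 FPKM in library 2 while the others were at least 28.5. In H19DMD mutant mesenchymal cells, library 3 stood apart in both Scap, at 32.7 FPKM with the next at 16.3, and Srebf2, at 3.46 FPKM with the next at 6.18. In Igf2 control non-mesenchymal cells, Elovl6 was 5.28 FPKM in library 4, and the other 3 were 6.74 to 6.998 FPKM.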

How the results depend on the processing

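The number of the 30 genes called between fractions in controls, 6, was 1 without the filter on low values and 1 with a replicate block, and 1 to 4 when single libraries were left out. The share of all genes called, 22.6%, was then 16.4%, 15.9% and 17% to 19.6%. With median-ratio scaling 7 of the 30 were called, beside 23.6% of all genes. In mutants, 5 became 8 with protein-coding genes only, 9 with all groups in one fit, 7 with the replicate block and 5 to 7 when single libraries were left out. The share of all genes, 28.6%, was then 36.4%, 31.4%, 24.7% and 23.3% to 27.7%. The cause was not tested. Acly was called in controls under all 14 alternatives (adjusted p 4.65e-05 to 0.0146). Lss, Insig2 and Stard4 each lost the call in 7 of the 14, Acaca in 9 and Cyp51 in 11. In the 3 mutant comparisons and the interaction, the count stayed at 0 under every alternative run, the replicate block included. No called gene changed direction. Between fractions, the deviations of same-numbered libraries correlated positively in all 7 pairs but weakly (0.00738 to 0.0674, each under 0.1). The main fits did not pair the samples, and whether equal numbers mark fractions of the same animals is not known. Of the 7 mesenchymal libraries, 5 correlated best with their own number, all but control library 3 and mutant library 4. Between mutants and controls the range was -0.0506 to 0.0329. For the Igf2 table, all groups in one fit is the main model itself. Absolute depth is unknown, and the few libraries per group limit what could be detected.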
